A study of Mus musculus with 6 samples.

Results

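The clustered protocadherins are cell adhesion proteins of the cadherin superfamily, encoded by 3 neighbouring gene clusters named alpha, beta and gamma on mouse chromosome 18. Members were taken by symbol from a deposited table of RNA-seq read counts, which lists 40 of them among 26981 genes with a count in the 5 libraries used below: 4 of the alpha, 14 of the beta and 22 of the gamma cluster. RefSeq annotates 58 such genes (14 alpha, 22 beta and 22 gamma), and all 40 listed symbols matched it. The libraries are labelled as bone marrow mesenchymal stromal cells of C57BL/6 mice, with polyadenylated RNA sequenced from 3 Hes1 KO and 3 WT samples. Hes1 KO animals came from crossing floxed Hes1 mice to Prx1Cre mice, in which a Prx1 promoter and enhancer drive Cre in early limb bud mesenchyme and part of the craniofacial mesenchyme. The labels speak of heterozygous floxed animals as well as of knockouts, so the number of alleles deleted is uncertain. Neither ages nor whether each library came from its own animal is given in the sources used here.

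Each alpha and gamma gene has a variable exon of its own, which encodes the outer, adhesive part of the protein and has its own promoter. That exon is spliced to constant exons shared by the whole cluster, which encode the common inner tail. Beta genes have no constant exons. In neurons, single cells switch on different combinations of the variable promoters, and the proteins then bind only like combinations on other membranes, which is used in telling a neuron's own branches from those of others. The members at the downstream end of the alpha and gamma clusters, called C-type, are used more uniformly from cell to cell. CTCF and cohesin bring the promoters to distant enhancers, and DNA methylation and SMCHD1 keep unused promoters silent.

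The 3 Hes1 KO libraries held 20563116 to 22131465 counts, WT replicate 2 held 5812598 and WT replicate 3 held 12109170. WT replicate 1 held 66167 counts, with 0 of them in any of the 40 genes. At its depth the summed level of WT replicate 2 would give 5.65 counts and that of WT replicate 3 would give 1.30, both without scaling factors. With scaling factors they would give 6.63 and 4.68. The factors of the 5 other libraries are described next. That of WT replicate 1 was 1.60 and came from a separate scaling of all 6 libraries, so the scaled values are approximate. The levels of Hes1 KO replicates 1, 2 and 3 would give 0.559, 0.263 and 0.599 counts without the factors, or 0.708, 0.398 and 0.773 with them. A count of 0 allows up to 3 counts. Every Hes1 KO value and the unscaled value of WT replicate 3 lie under that limit. Both values of WT replicate 2 and the scaled value of WT replicate 3 lie above it. This library is left out of the values below except where named. In WT replicate 3 erythroid markers took 44.7% of the counts, against at most 0.369% of any other library, and levels are therefore given as CPM, counts relative to library size, scaled by edgeR's TMM factors, which were 0.445 for WT replicate 3 and 1.05 to 1.37 for the other 4. Hes1 had 185, 220 and 255 counts in Hes1 KO replicates 1, 2 and 3, against 310 and 345 in WT replicates 2 and 3, or 6.63, 9.87 and 10.0 scaled CPM against 39.2 and 64.1. The labelled cell type was poorly represented: Prrx1, the gene whose promoter drives the Cre, had 2, 0 and 1 counts in Hes1 KO replicates 1, 2 and 3 and 1 and 0 in WT replicates 2 and 3. The stromal marker list (17 of 17 genes in the table) summed to 171 to 270.3 scaled CPM in the knockout libraries and to 171 and 199.7 in the wild-type ones, most of it from Runx2 (122 to 207 against 112 and 122) and Eng (22.7 to 32.3 against 23.3 and 48.7).

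The rule for members uses symbols only, but the family was chosen by earlier fold changes between these same libraries, in which Pcdhga9 and Pcdhga11 were among the genes lower in Hes1 KO, so the comparison of Hes1 KO with WT is given as a description, and no test of it is used as support. Summed over the 40 genes, the level was 6.70, 3.77 and 7.31 scaled CPM in Hes1 KO replicates 1, 2 and 3 (mean 5.93 ± 1.89 SD, n = 3). It was 62.7 in WT replicate 2 and 44.2 in WT replicate 3. Every Hes1 KO library lay below both WT libraries, and the mean of WT was 9.02-fold that of Hes1 KO. These sums rest on 187, 84 and 186 counts in Hes1 KO and on 496 and 238 counts in WT, so counting error is large for single genes. Without the TMM factors the sums were 8.45, 3.97 and 9.05 CPM in Hes1 KO against 85.3 and 19.7 CPM in WT, still with no overlap, but with WT replicate 3 only 2.75-fold above the Hes1 KO mean. In bulk RNA such as this, fewer cells of a type and less RNA in each cell cannot be told apart.

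**Figure D1:**
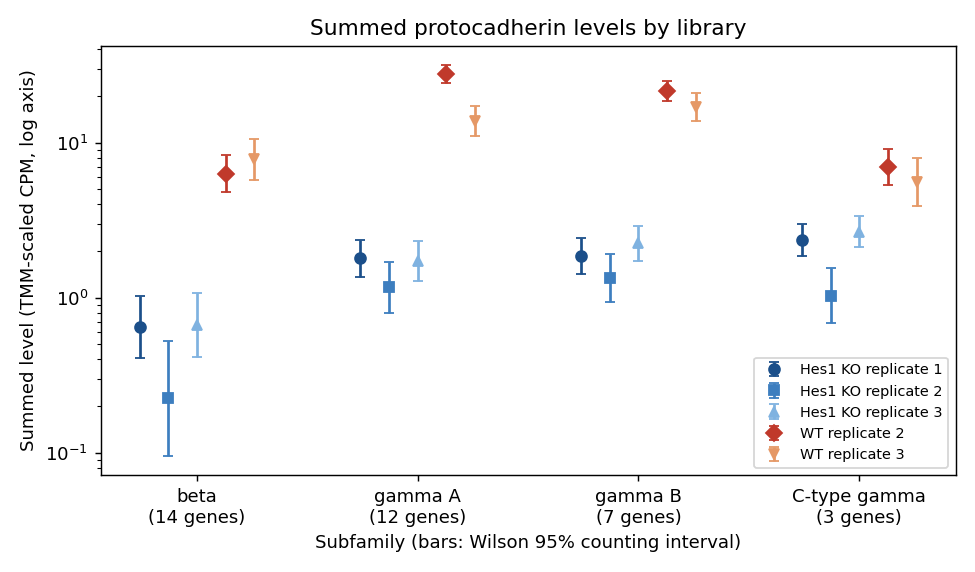
Summed level of each subfamily in 5 libraries, as TMM-scaled CPM on a log axis, with Wilson 95% intervals that cover counting error only. In all 4 subfamilies the 3 Hes1 KO libraries lie below both WT libraries, with the narrowest gap in the C-type gamma genes.

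The alpha cluster was close to undetected. Its 4 listed genes, Pcdha8, Pcdha11, Pcdha12 and the C-type Pcdhac2, had 1 count each over the 5 libraries together. The count of Pcdha8 was in Hes1 KO replicate 1, those of Pcdha11 and Pcdha12 were in WT replicate 2 and that of Pcdhac2 was in WT replicate 3. With 4 counts in all, no difference in the alpha cluster was detectable at this depth.

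The beta genes, which by gene models share at most 9.67% of their exonic bases with another member, had 18, 5 and 17 counts in Hes1 KO replicates 1, 2 and 3 and 50 and 42 in WT replicates 2 and 3. Scaled, these were 0.645, 0.224 and 0.668 CPM in Hes1 KO (mean 0.512 ± 0.250 SD, n = 3) and 6.32 and 7.81 in WT, a 13.8-fold difference of the means. The intervals of the groups did not touch: the highest upper limit in Hes1 KO was 1.07 and the lowest lower limit in WT was 4.80 (Wilson 95%, counting error only). Most beta counts came from 4 neighbouring genes, Pcdhb16 to Pcdhb19, with 11, 3 and 10 counts in the knockout libraries and 42 and 31 in the wild-type ones. The 7 listed genes upstream of them had 2, 0 and 4 counts together in the knockout libraries and 4 and 5 in the wild-type ones.

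Pcdhb16 had 9, 1 and 5 counts in the knockout libraries and 26 and 12 in the wild-type ones, or 0.322, 0.0449 and 0.197 scaled CPM against 3.29 and 2.23. Pcdhb17 had 1, 1 and 3 counts against 8 and 9. For both genes every Hes1 KO library was below both WT libraries, and the fitted log2 fold changes were -3.81 (SE 0.77) and -4.19 (SE 0.67). Pcdhb18 had 1, 0 and 1 counts in the knockout libraries and 4 and 6 in the wild-type ones, and Pcdhb19 had 0, 1 and 1 against 4 and 4. The other 10 beta genes had at most 5 counts in any library.

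The gamma cluster carried most of the signal, with all 22 genes listed and 1055 of the 1191 counts of the family in these 5 libraries. It summed to 168, 79 and 169 counts in the knockout libraries and to 444 and 195 in the wild-type ones, or 6.02, 3.54 and 6.64 scaled CPM (mean 5.40 ± 1.64 SD, n = 3) against 56.1 and 36.3. The difference of the means was 8.55-fold. Hes1 KO replicate 2 stood below the 2 other Hes1 KO libraries, since the upper limit of its interval, 4.42 scaled CPM, was under their lower limits of 5.17 and 5.71. WT replicate 3 likewise stood below WT replicate 2, with limits of 31.5 to 41.7 against 51.2 to 61.6.

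By GENCODE M21 gene models on GRCm38, 27.8% to 66.8% of the exonic bases of a gamma gene are shared with other members, so the split of reads between members is uncertain. Within WT replicate 3 the counts ran from 0 for Pcdhgb1 to 35 for Pcdhgb6, so any reads in the shared exons were not added in full to every member. Adjacent variable exons are also alike in sequence, and the authors' handling of reads that match several places is not known from the sources used here.

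**Figure D2:**
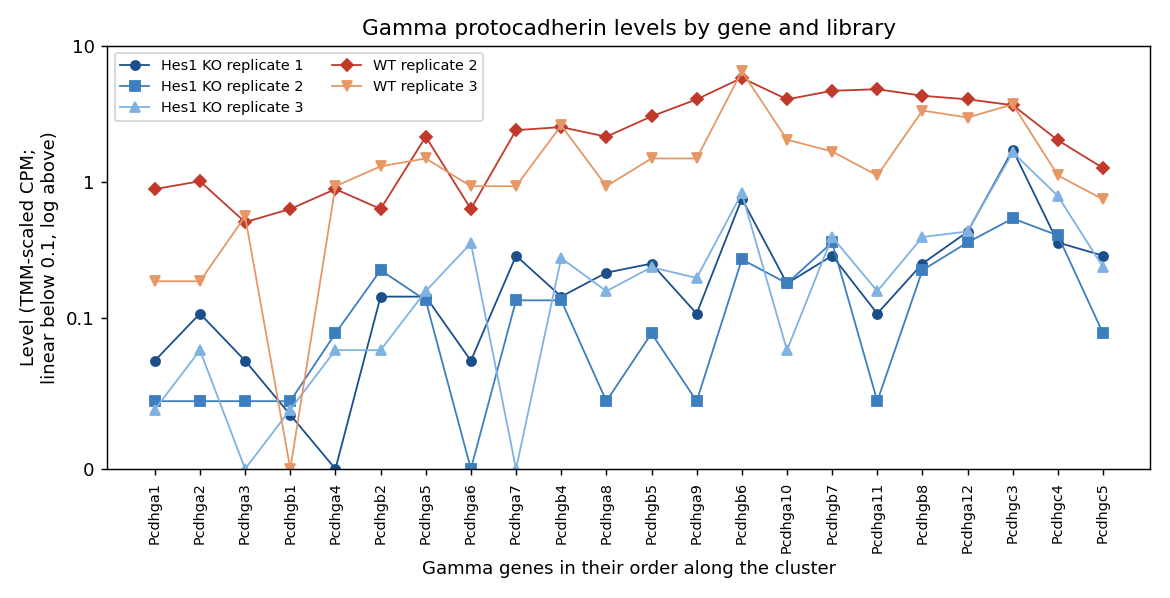
Level of each of the 22 gamma genes in 5 libraries, in their order along the cluster, as TMM-scaled CPM (axis linear below 0.1 and log above; lines join the genes of a library and carry no values between them). For 21 of the 22 genes both WT libraries lie above every Hes1 KO library, the exception being Pcdhgb1, listed at 0 in WT replicate 3, and levels rise along the variable genes in each library. Of all genes with a count in the 5 libraries, 20.6% have both WT libraries above every Hes1 KO library.

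The variable gamma genes are of 2 interleaved kinds, gamma A and gamma B. Gamma A genes (12 listed) summed to 1.79, 1.17 and 1.73 scaled CPM in the knockout libraries and to 27.6 and 13.8 in the wild-type ones, a 13.2-fold difference of the means. Gamma B genes (7 listed) summed to 1.86, 1.35 and 2.24 in the knockout libraries and to 21.6 and 16.9 in the wild-type ones, a 10.6-fold difference.

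Among the gamma A genes, Pcdhga11 had 3, 1 and 4 counts in Hes1 KO replicates 1, 2 and 3 and 38 and 6 in WT replicates 2 and 3. Its log2 fold change was -4.75 (SE 0.79), and WT replicate 2 was 4.31-fold above WT replicate 3 after scaling. Pcdhga9 had 3, 1 and 5 counts against 32 and 8, with a log2 fold change of -4.49 (SE 0.75). Both genes were low in each Hes1 KO library and were carried more by WT replicate 2 than by WT replicate 3. Pcdhga10 had 5, 4 and 2 counts against 32 and 11 (log2 fold change -4.33, SE 0.57), and Pcdhga5 had 4, 3 and 4 against 17 and 8 (-3.59, SE 0.43). Pcdhga12, the last gamma A gene before the C-type genes, had 12, 8 and 11 counts against 32 and 16, or 0.430, 0.359 and 0.432 scaled CPM against 4.05 and 2.97 (-3.09, SE 0.38). Its Hes1 KO libraries were close to each other and far from both WT libraries. The other 7 gamma A genes had 10 to 35 counts over the 5 libraries and did not pass the count filter. In each of these 7 every Hes1 KO level was below both WT levels, as in 20.6% of all genes with a count.

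Among the gamma B genes, Pcdhgb6 was the most abundant, with 21, 6 and 21 counts in the knockout libraries and 46 and 35 in the wild-type ones. These were 0.752, 0.269 and 0.825 scaled CPM against 5.82 and 6.51, so the WT libraries were alike and both above Hes1 KO (log2 fold change -3.30, SE 0.54). Pcdhgb8, which RefSeq annotates as a transcribed pseudogene, had 7, 5 and 10 counts against 34 and 18 (-3.69, SE 0.44). Pcdhgb4 had 4, 3 and 7 against 20 and 14 (-3.75, SE 0.49). Both of these had WT libraries within 1.28-fold of each other after scaling. Pcdhgb5 had 7, 2 and 6 counts against 24 and 8 (-3.51, SE 0.61), and Pcdhgb7 had 8, 8 and 10 against 37 and 9 (-3.18, SE 0.54). In Pcdhgb7 the 9 counts of WT replicate 3 were no more than the 10 of Hes1 KO replicate 3, and the groups were apart only once depth was taken into account. Pcdhgb2 had 4, 5 and 2 counts against 5 and 7 and the smallest fold among the fitted variable genes (-2.64, SE 0.64). Pcdhgb1 had 1 count in each Hes1 KO library, 5 in WT replicate 2 and 0 in WT replicate 3, so its groups overlapped.

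The 3 C-type gamma genes had the smallest fold of the subfamilies, which was not tested against that of the others. They summed to 2.36, 1.03 and 2.67 scaled CPM in Hes1 KO (mean 2.02 ± 0.872 SD, n = 3) and to 6.95 and 5.58 in WT, a 3.10-fold difference of the means. Pcdhgc3, the broadly expressed member whose protein is reported to bind the Wnt pathway scaffold Axin1, had 48, 12 and 42 counts in the knockout libraries and 29 and 20 in the wild-type ones. Its scaled levels were 1.72, 0.538 and 1.65 CPM against 3.67 and 3.72, and its log2 fold change was -1.50 (SE 0.55). Pcdhgc4, which in mice is needed for the survival of many neurons, had 10, 9 and 20 counts against 16 and 6 (-1.60, SE 0.55). Pcdhgc5 had 8, 2 and 6 counts against 10 and 4 and was not fitted. For these 3 genes the separation of the groups depended on the scaling: in CPM without TMM factors their sum was 2.98, 1.09 and 3.31 in Hes1 KO, and the 2.48 of WT replicate 3 lay within that range.

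The make-up of the gamma counts within a library needs no scaling between libraries. C-type genes made up 39.3%, 29.1% and 40.2% of the gamma counts in Hes1 KO replicates 1, 2 and 3 (mean 36.2% ± 6.17 SD, n = 3). They made up 12.4% in WT replicate 2 and 15.4% in WT replicate 3. The Wilson 95% intervals were 32.2% to 46.8%, 20.3% to 39.9% and 33.1% to 47.8% in Hes1 KO, against 9.64% to 15.8% and 11.0% to 21.1% in WT. The shares did not overlap between the groups, although the interval of Hes1 KO replicate 2 reached into that of WT replicate 3. Pcdhgc3 alone made up 28.6%, 15.2% and 24.9% in the knockout libraries and 6.53% and 10.3% in the wild-type ones. Among the variable gamma counts, the share of gamma A genes was 49.0%, 46.4% and 43.6% in the knockout libraries and 56.0% and 44.8% in the wild-type ones, and here the groups overlapped. The share of beta counts among beta and gamma counts overlapped too, at 9.68%, 5.95% and 9.14% in the knockout libraries and 10.1% and 17.7% in the wild-type ones.

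**Figure D3:**
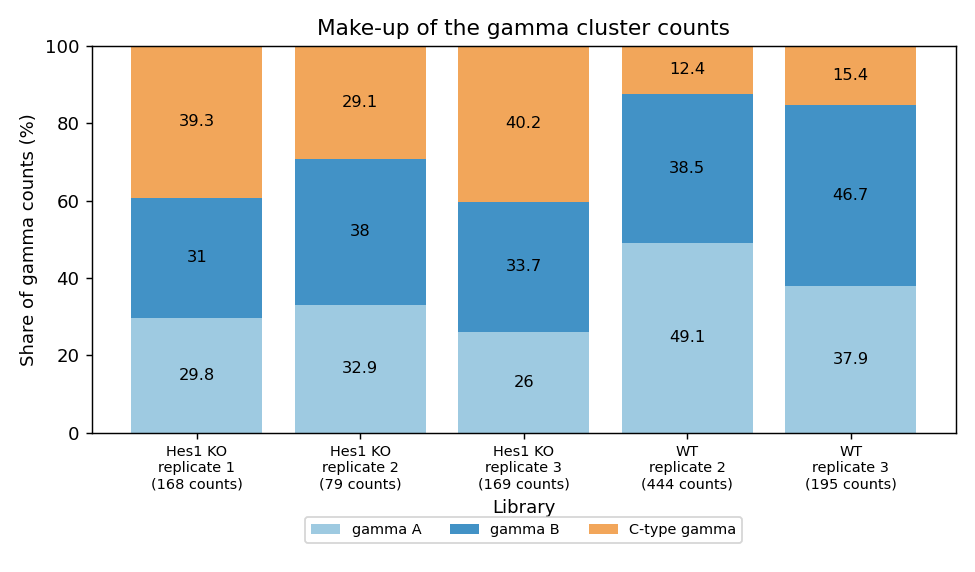
Share of the gamma counts of each library, in percent, that fell in gamma A, gamma B and C-type genes, with the number of gamma counts under each bar. The C-type share is 29.1% to 40.2% in the Hes1 KO libraries and 12.4% and 15.4% in the WT libraries.

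Levels rose along the cluster within every library. Over the 19 variable gamma genes in their RefSeq order, Spearman's rho between position and count was 0.87 in WT replicate 2, 0.81 in WT replicate 3 and 0.69, 0.55 and 0.72 in Hes1 KO replicates 1, 2 and 3. These are correlations across genes of a library, which are neighbours sharing exons and depth and not independent. The 10 downstream genes held 80.2% and 78.8% of the variable gamma counts in WT and 74.5%, 69.6% and 79.2% in Hes1 KO, with overlapping intervals. All counts of a gene were also divided by the kilobases of its exons that belong to no other member. Any counted reads in shared exons would raise the gamma values on this scale relative to the beta ones. Pcdhgb6 had the highest WT level of the family, 2.40 scaled CPM per kilobase, followed by Pcdhgb8 with 1.53. In Hes1 KO the highest level per kilobase was that of Pcdhgc3, 0.385, followed by Pcdhgb6 with 0.240. Pcdhb16, the highest beta gene, had 0.528 in WT and 0.0360 in Hes1 KO on this scale.

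In the edgeR fit of the whole table, 15 of the 40 members passed the filter on low counts and 25 did not. Of the 15, 13 were called lower in Hes1 KO (adjusted p under 0.05 over all 16190 genes tested) and 0 higher, against 8.09% of all genes called lower and 7.44% called higher. The median log2 fold change of the 15 was -3.59, against 0.02 over all genes tested. The 13 were Pcdhb16, Pcdhb17, 5 gamma A genes and 6 gamma B genes, all named above, and the 2 C-type genes Pcdhgc3 and Pcdhgc4 were not called. These counts cannot be read as support, because 12 of the 15 met the filter through both WT libraries with fewer than 2 Hes1 KO libraries at its limit, which favours genes that are lower in Hes1 KO. Of these 12, Pcdhgb7, Pcdhgb8 and Pcdhgc4 had 1 Hes1 KO library at that limit and the others had 0. With no filter 15 of 40 were called lower, against 3.14% of all genes. Over all 40 members, 28 had every Hes1 KO library below both WT libraries (21 gamma and 7 beta), against 20.6% of all genes with a count. On leaving out any Hes1 KO library, or without TMM factors, edgeR called 0 genes of the whole table, with 11 to 13 members lower at an unadjusted p under 0.05. Without WT replicate 2, 11 members were called, and without WT replicate 3, 14, each time against a single WT library assumed to vary like the others.

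**Figure D4:**
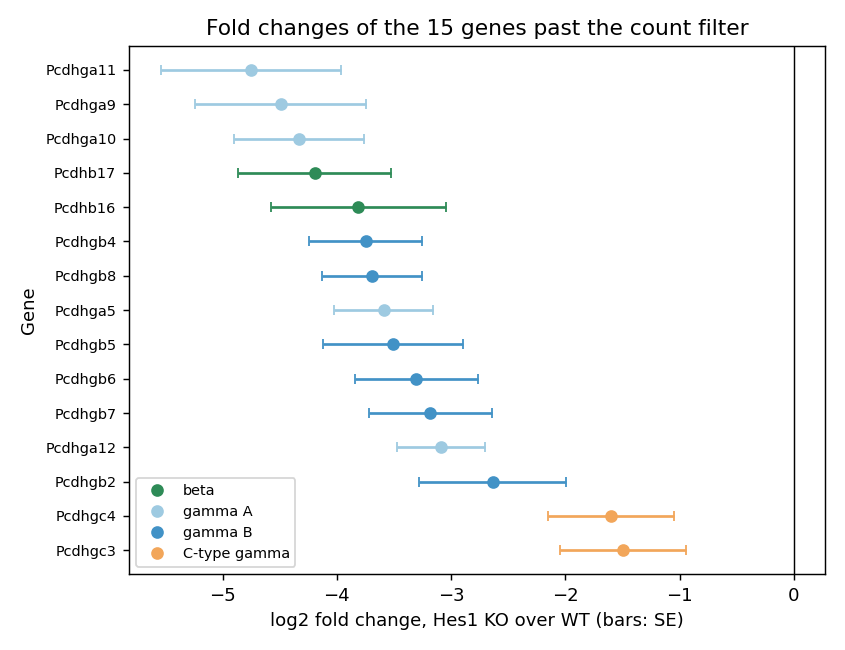
Log2 fold change of Hes1 KO over WT for the 15 members that passed the count filter, with standard errors, coloured by subfamily. The C-type genes Pcdhgc3 (-1.50) and Pcdhgc4 (-1.60) lie nearest to 0 and Pcdhga11 (-4.75) farthest.

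Genes that lie beside the clusters were read in the same fit. Taf7, a subunit of the general transcription factor TFIID that lies between the beta and gamma clusters, was at 34.8, 40.4 and 31.3 scaled CPM in the knockout libraries and at 39.5 and 30.3 in the wild-type ones (log2 fold change 0.02, SE 0.22). Diaph1, an actin-nucleating formin next to the gamma cluster, had a log2 fold change of 0.75 (SE 0.29) and did not pass (edgeR quasi-likelihood test, Benjamini-Hochberg adjusted p = 0.115). Slc25a2, a mitochondrial carrier gene next to Taf7, had 7, 10 and 6 counts in Hes1 KO, 19 in WT replicate 2 and 0 in WT replicate 3, and was not fitted. Of the 15 fitted genes of this neighbour list, Arap3, a GTPase-activating protein, rose by 1.62 (SE 0.35, adjusted p = 0.041) and 0 fell. Of all genes tested, 7.44% were called higher and 8.09% lower.

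The protocadherin and large cadherin genes outside the clusters were sparse. Of 24 such genes 21 were listed and 5 could be fitted, of which 1 fell and 0 rose, beside 8.09% and 7.44% of all genes tested. Pcdh9, a protocadherin with a gene of its own, had 47, 25 and 61 counts in the knockout libraries and 83 and 91 in the wild-type ones, or 1.68, 1.12 and 2.40 scaled CPM against 10.5 and 16.9. It fell in Hes1 KO (log2 fold change -2.98, SE 0.43, edgeR quasi-likelihood test, Benjamini-Hochberg adjusted p = 0.0300). Pcdh7 had a log2 fold change of -1.76 (SE 0.73, adjusted p = 0.133), with 30 counts in WT replicate 2 and 5 in WT replicate 3, and did not pass.

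Ctcf, whose protein folds the clusters together with cohesin, was at 205, 134 and 199.7 scaled CPM in the knockout libraries and at 284 and 243 in the wild-type ones (log2 fold change -0.55, SE 0.28, edgeR quasi-likelihood test, Benjamini-Hochberg adjusted p = 0.19). Rad21, a cohesin subunit, had a log2 fold change of 0.43 (SE 0.27, adjusted p = 0.272), and Smchd1 one of -0.21 (SE 0.39, adjusted p = 0.716). Of 14 fitted CTCF and cohesin genes 1 fell, Hdac8, which deacetylates the cohesin subunit SMC3 (log2 fold change -1.99, SE 0.25, adjusted p = 0.0294). The silencing list also holds Tet1, Tet2 and Tet3, whose proteins oxidise methylated cytosine and so act against DNA methylation. Of its 19 fitted genes (Zfp57, with 3 to 8 counts in each of the 5 libraries, was not fitted) 2 fell. These were Tet1, by 1.44 (SE 0.23, adjusted p = 0.0302), and Atf7ip, a partner of the histone methyltransferase SETDB1, by 1.54 (SE 0.34, adjusted p = 0.0422). These counts stand beside 8.09% of all genes tested that were called lower, and nothing about the lists is read from them. Setdb1 itself had a log2 fold change of -0.06 (SE 0.20) and the DNA methyltransferase Dnmt3b one of -0.02 (SE 0.28). Of 22 fitted genes of protocadherin signalling and processing 1 rose, beside 7.44% of all genes tested. It was Cyfip1 of the WAVE actin regulatory complex, which rose by 1.26 (SE 0.23, adjusted p = 0.0328). Axin1 had a log2 fold change of 0.04 (SE 0.20).

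Markers of neurons, in which these genes are best known, were near 0. Of 14 neuronal markers 11 were listed, and their sum was 2.94 to 4.17 scaled CPM in the knockout libraries and 2.28 and 4.83 in the wild-type ones. The synaptic gene Snap25 had 1 count in all and Syt1 was not listed. The most abundant of the list, Map2 and Syn1, had log2 fold changes of -1.42 (SE 0.59) and 1.92 (SE 0.66) and did not pass (edgeR quasi-likelihood test, Benjamini-Hochberg adjusted p = 0.132 and 0.0881). Schwann cell and glial markers (11 of 12 listed) summed to 98.9 to 131 scaled CPM in the knockout libraries and 69.9 and 75.1 in the wild-type ones, of which Mbp alone gave 82.9 to 120 and 57.9 and 53.0, while Sox10 had 1 count in all and Foxd3 was not listed. The sum of the endothelial markers (9 of 9) was lower in every Hes1 KO library than in both WT libraries, at 89.9 to 110 scaled CPM against 111 and 191, but overlapped without TMM factors (94.6 to 135 CPM against 151 and 84.7). Most of that sum was Pecam1, at 77.4 to 94.1 scaled CPM against 97.2 and 160, which was not called (log2 fold change -0.57, SE 0.27). Of the 8 endothelial markers that were fitted, 1 fell, the clotting factor carrier Vwf, by 2.16 (SE 0.40, adjusted p = 0.033). This stands beside 8.09% of all genes tested that were called lower.

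Markers of B-lineage cells moved with the protocadherins. The 12 B cell markers, all listed and none at 0 in any of the 5 libraries, summed to 1636, 1939 and 2618 scaled CPM in the knockout libraries and to 5903 and 10517 in the wild-type ones. Of these 12, 4 fell and 0 rose: the B-lineage transcription factors Ebf1 (log2 fold change -3.51, SE 0.47) and Pax5 (-2.22, SE 0.44), the recombinase gene Rag1 (-3.12, SE 0.44) and the adaptor Blnk (-2.39, SE 0.33), each by the edgeR quasi-likelihood test (Benjamini-Hochberg adjusted p = 0.0294, 0.0356, 0.03 and 0.03). On this scale Hes1 KO replicate 2, lowest in the protocadherin sum, was not lowest in the B cell sum. Without TMM factors it was lowest in both, with B cell sums of 2064, 2041 and 3239 CPM in Hes1 KO replicates 1, 2 and 3. In scaled CPM, WT replicate 3 was above WT replicate 2 in the B cell and beta sums and below it in the gamma sum. Without TMM factors WT replicate 3 was below WT replicate 2 in each of these sums. The CPM values were 4672 against 8031 for the B cell markers, 3.47 against 8.60 for beta and 16.1 against 76.4 for gamma. Ebf1 was at 2301 scaled CPM in WT replicate 2 and 1537 in WT replicate 3. T and NK cell markers (10 of 10) summed to 83.4 to 91.2 scaled CPM in the knockout libraries. They summed to 63.5 and 140 in the wild-type ones, on both sides of the knockout range. Of 9 fitted T and NK cell markers 1 fell, Cd2 (log2 fold change -2.68, SE 0.34), and 1 rose, Nkg7 (1.16, SE 0.23). Neutrophil and macrophage markers went the other way, with sums of 38643 to 125835 and 8034 to 19054 scaled CPM in Hes1 KO against 816 to 11196 and 391 to 1510 in WT (13 of 13 and 13 of 13 genes listed). Of 13 fitted neutrophil markers 1 rose, Cxcr2 (log2 fold change 3.15, SE 0.59), and 0 fell. Of 11 fitted macrophage markers 6 rose and 0 fell. By smallest p the first 4 were Fcgr1 (6.07, SE 0.43), Cd68 (2.46, SE 0.27), Aif1 (3.06, SE 0.36) and Mpeg1 (2.29, SE 0.38). Of all genes tested, 7.44% were called higher and 8.09% lower. The part of a different mix of cells in the protocadherin levels was not tested.

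Features of the RNA moved with the protocadherins as well. Predicted gene models summed to 10804 to 23123 scaled CPM in the knockout libraries and to 48882 and 75171 in the wild-type ones, and protein-coding genes that span over 100 kb to 71744 to 75764 against 111752 and 133446. The abundant nuclear noncoding RNA list (8 of 8 listed) summed to 1957 to 3104 in the knockout libraries and to 15165 and 5163 in the wild-type ones, and its member Kcnq1ot1 fell by 2.09 (SE 0.47, edgeR quasi-likelihood test, Benjamini-Hochberg adjusted p = 0.0423). The 100 listed olfactory receptor genes, most of which have a single coding exon like the beta protocadherins, summed to 6.66, 7.36 and 7.43 scaled CPM in the knockout libraries and to 10.5 and 23.6 in the wild-type ones. Of these receptor genes 7 were fitted, of which 1 rose and 1 fell, beside 7.44% and 8.09% of all genes tested. All 4 sums were higher in both WT libraries than in any Hes1 KO library on this scale. Without TMM factors this held for the predicted models and the receptors only: the long genes were at 59278 CPM in WT replicate 3, below the 75542 to 95568 CPM of Hes1 KO, and the nuclear RNA list was at 2293 CPM there, within the 2061 to 3840 CPM of Hes1 KO. The mean of WT was 3.75-fold that of Hes1 KO for the predicted models, 1.68-fold for the long genes, 3.80-fold for the nuclear RNA and 2.39-fold for the receptors, beside 9.02-fold for the protocadherins. Xist, the RNA that coats the silenced X chromosome, reached 968, 10.5 and 812 scaled CPM in Hes1 KO replicates 1, 2 and 3. In WT replicates 2 and 3 it was at 2.28 and 162. Xist thus differed widely between libraries of the same group, and a part of the sex of the animals was not tested. The part of these features in the protocadherin levels was not tested.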

How the data were processed

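The deposited values are raw read counts per gene symbol. The authors counted with featureCounts, by the table's name, on genome build GRCm39, per the submitters' processing notes, which also name edgeR and limma. The aligner, annotation, strand setting and handling of multiply matching reads were not given in the sources used here. Each of the 26988 genes listed had a count in at least 1 library. The members and lists were chosen with earlier results of these data known.

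Counts of 3 Hes1 KO libraries and WT replicates 2 and 3 were fitted with edgeR 4.0.16 (R 4.3.3). Genes were kept by filterByExpr, which needed 0.486 CPM in as many libraries as the smaller group holds and also a minimum total count. Pcdhb18, with 12 counts over the 5 libraries, met the CPM limit but not the total. TMM scaling was followed by the quasi-likelihood test (legacy option off) with Benjamini-Hochberg adjustment over 16190 genes at 0.05. Standard errors are approximate, the fold change over the square root of F. Scaled CPM are counts over TMM effective library sizes. Intervals are Wilson 95% intervals (scipy 1.17.1) and cover counting error only. Replicates may be technical, so p-values cover only the variation among these libraries. RefSeq gene order and GENCODE M21 exon lengths (both GRCm38) gave order and lengths, and no coordinates were used. Every member past the threshold was named, as were the 2 most abundant of each subfamily. From each list up to 4 passing genes or the 2 most abundant were taken. Of these, Erbb3 of the glial list and Hbb-bs and Hbb-bt of the erythroid list were not described above. Further factors and neighbour genes of the lists were named after their values were seen. Alternatives were other scalings, filters, DESeq2 1.42.0, limma-voom (limma 3.58.1), other dispersions and thresholds, thinning, a replicate block and leaving out libraries. The fit was tested on simulated data.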

Additional observations from a re-analysis of the deposited data

How the results depend on the processing

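Against 13 members called lower, the count was 0 with all 6 libraries (where 2 members were tested), 0 with library size alone, 0 with library size without erythroid marker genes, 0 at a threshold of 0.01 and 0 with the replicate block. Each of these settings called 0 genes of the whole table. In these settings 1, 13, 13, 15 and 12 members were lower at an unadjusted p under 0.05. Leaving out a library gave counts of 0 to 14. Thinning every library to the depth of WT replicate 2 left 2 members tested, of which 1 was called, and moved the log2 ratio of the beta sum from -3.79 to -5.31. With the other scalings, filters, dispersions and thresholds the count was 10 to 15, and DESeq2 called 13 and limma-voom 12. No member called in the main fit changed sign in any alternative where it had a value. The log2 ratio of the gamma sum was -3.10 and ranged from -3.35 to -2.58 over 13 alternatives, and that of the beta sum ranged from -5.31 to -3.26. The alpha ratio rests on 4 counts and has no value without Hes1 KO replicate 1. The replicate numbers were not taken to pair the libraries. Deviations of same-numbered libraries from their group means correlated by 0.15, 0.01 and 0.24. The best WT partners of Hes1 KO replicates 1, 2 and 3 were WT replicates 1, 1 and 3. The WT mean included the shallow WT replicate 1, so these values cannot decide whether the libraries are paired. Depth limits the results: 25 of 40 members could not be fitted, and no gene of the family exceeded 48 counts in a library.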
